A study of Mus musculus with 10 samples.

Results

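The proteasome genes of αTC1 cells were compared between cells treated with enzalutamide and cells treated with the solvent DMSO. They were taken as every row of the count table whose symbol starts with Psma, Psmb, Psmc, Psmd, Psme, Psmf or Psmg followed by a number, which gave 50 of 33212 genes. No row of the table carried such a symbol with the pseudogene suffix. Of the 50 genes 47 had enough counts to be tested, and Psma8, Psmb11 and Psme2b did not. Of the 50, 49 encode proteasome subunits, activators, an inhibitor or assembly factors. Psmc3ip, a cofactor of meiotic recombination, matches by name only. Its values are given apart, but counts and medians over all members include it. αTC1 is a mouse line derived from a glucagon-producing pancreatic tumour of mice that carried a viral oncogene driven by the glucagon gene promoter, so 1 transformed line stands for α cells here. The cells were kept in low-glucose medium (1 g/L) with 10% serum. One group received 10 μM enzalutamide, an inhibitor of the androgen receptor, for 48 h, and the other received DMSO for 48 h. Polyadenylated RNA was sequenced from 5 libraries in each group, which the labels call biological replicates, without saying whether they were separate cultures, so the p-values cover spread among these libraries, which may be technical.

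The 26S proteasome is the main protease for ubiquitin-tagged proteins in the cytosol and nucleus. Its 20S core is a stack of α rings and β rings, and the proteolytic sites sit on the β subunits encoded by Psmb6, Psmb7 and Psmb5. The 19S regulatory particle caps the core, with a base of ATPases that unfold substrates and a lid that removes ubiquitin. In immune cells and under interferon, Psmb9, Psmb10 and Psmb8 replace the constitutive catalytic subunits and give the immunoproteasome, and the PA28 activator of Psme1 and Psme2 is induced with them. Subunit genes are known to be regulated together. In mammals the transcription factor NFE2L1 induces them through antioxidant response elements when proteasome activity is low.

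Promoter sequences are given first. RefSeq starts on GRCm38.p6 were found for 42 of the 50 genes, with 45 starts in all, and not for Psma8, Psmb1, Psmb2, Psmb7, Psmc3, Psmd3, Psmd7 and Psmg2. The 250 bases before each start were searched on either strand for 6 motifs, chosen after an exploratory search of these promoters. The core of the antioxidant response element, TGACNNNGC, was present at 5 of 45 member starts (11.1%) and at 10.2% of 32851 starts of all genes. Among the members it was found before Psmb5, Psmb6, Psmc6, Psmd12 and Psmd9. A core of ETS factor sites, CCGGAAG, was present at 14 of 45 member starts (31.1%) and at 6.91% of all starts. These starts belong to Psma6, Psmc1, Psmc2, Psmc6, Psmd2, Psmd4, Psmd6, Psmd11, Psmd12, Psme3, Psme4, Psmg1 and Psmc3ip. A gene among them is counted at more than 1 start, and Psmc3ip is no proteasome gene. The CCAAT box stood at 15 member starts (33.3%) and at 33.8% of all starts. Cores of the interferon-stimulated response element (GAAANNGAAA), the interferon-gamma activated site (TTCNNNGAA) and the amino acid response element (TGATGNAA) were present at 3, 2 and 1 member starts, against 2.98%, 7.02% and 3.45% of all starts. Some starts hold more than 1 of these motifs. A match describes letters and does not show binding. The shares of all starts also cover genes that were not tested here, and shares over tested genes alone were not taken. Whether any motif bears on the changes was not tested. The core of the antioxidant response element begins 47 bases before the start of Psmb5 and 9 bases before that of Psmb6. The promoters of the catalytic subunit genes Psmb5 and Psmb6 are printed 5′ to 3′ with the antioxidant response element core in capitals, and those of the regulatory particle base genes Psmd2 and Psmd4 with the ETS core in capitals. The Psmd2 match lies on the opposite strand, so its capitals show the reverse complement. In GENCODE M21 no gene overlaps these windows except for the last 27 bases of the Psmb5 window, which lie in a first exon of Psmb5. Each sequence is read on its gene's strand and ends at the base before the start.
Psmb5 (chr14:54617996-54618245, minus strand): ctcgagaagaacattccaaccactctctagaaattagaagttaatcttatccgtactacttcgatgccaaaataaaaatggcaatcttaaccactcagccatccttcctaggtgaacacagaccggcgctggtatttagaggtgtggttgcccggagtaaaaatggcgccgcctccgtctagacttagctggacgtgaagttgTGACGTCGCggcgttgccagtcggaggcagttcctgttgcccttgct
Psmb6 (chr11:70525107-70525356, plus strand): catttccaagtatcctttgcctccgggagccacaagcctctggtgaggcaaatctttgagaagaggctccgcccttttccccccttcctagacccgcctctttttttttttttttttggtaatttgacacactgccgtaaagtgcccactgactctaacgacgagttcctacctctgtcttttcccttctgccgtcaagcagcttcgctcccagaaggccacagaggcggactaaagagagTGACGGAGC
Psmd2 (chr16:20651402-20651651, plus strand): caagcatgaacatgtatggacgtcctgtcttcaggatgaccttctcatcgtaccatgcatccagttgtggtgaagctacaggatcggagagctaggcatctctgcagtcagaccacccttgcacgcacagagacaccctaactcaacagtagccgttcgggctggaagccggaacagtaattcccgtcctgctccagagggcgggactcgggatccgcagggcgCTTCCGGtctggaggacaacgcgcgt
Psmd4 (chr3:95042615-95042864, minus strand): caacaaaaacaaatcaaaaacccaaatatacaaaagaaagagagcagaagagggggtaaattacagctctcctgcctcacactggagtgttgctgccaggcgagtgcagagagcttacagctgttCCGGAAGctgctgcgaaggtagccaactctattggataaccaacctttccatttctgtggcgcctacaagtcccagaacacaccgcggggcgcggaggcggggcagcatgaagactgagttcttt

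The libraries held between 59557697 and 68603842 counts. A count of 0 allows up to 3 counts, which is between 0.0439 and 0.0497 CPM (a gene's counts for each 1000000 counts of the library, after scaling of the library totals). This limit holds for counting error alone. The α cell label was met by its defining marker Gcg, the glucagon gene, with 15269 ± 440.1 CPM with DMSO and 8466 ± 389 CPM with enzalutamide (SD, n = 5 each). Of 7 β cell markers Ins1, Pdx1 and Ucn3 had 0 counts in every library, and the list summed to between 44.3 and 49 CPM with DMSO and between 45.8 and 49.5 CPM with enzalutamide, nearly all of it Nkx6-1 (45.2 ± 2.28 CPM with DMSO and 46.2 ± 1.68 CPM with enzalutamide), with Ins2 and Mafa at low levels (18 to 53 and 28 to 139 counts). Of 3 markers of δ and PP cells Sst and Ppy were at 0, and the list reached at most 0.119 CPM. Of 5 markers of endothelium and stroma Cdh5 was at 0, and the list summed to between 1.11 and 1.86 CPM with DMSO and between 0.675 and 1.97 CPM with enzalutamide, where Col1a2 fell from 1.06 ± 0.276 to 0.394 ± 0.213 CPM (adjusted p = 0.0048). Across all 14156 genes tested with edgeR's quasi-likelihood test, 37.8% changed with enzalutamide at a Benjamini-Hochberg adjusted p under 0.05. Of all genes tested 18.8% were lower and 19% higher. The median log2 fold change (log2FC, enzalutamide against DMSO) over all genes tested was 0.01. Scaled to total counts alone, 3285 genes were higher and 2131 lower, where the TMM scaling used throughout gave 2696 and 2662.

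Transcripts of the 26S proteasome were lower in enzalutamide throughout the complex. The naming rule gave 31 tested subunit genes of the constitutive 20S core and the 19S regulatory particle. All 31 fell, against 18.8% of all genes tested, and 0 rose. The 19S subunit genes Adrm1 and Shfm1 do not match the rule and are given below with the genes that work with the proteasome. Their changes ran from -26.4% for Psma1 to -10.3% for Psmd8, with a median log2FC of -0.32. For 30 of the 31 all 5 enzalutamide values lay below all 5 DMSO values, a separation in that direction that 13.7% of all genes tested showed. The 95% intervals of the 31 log2 fold changes lay between -0.51 and -0.08. Over all 47 tested members 36 fell, 3 rose and 8 did not pass (37.8% of all genes tested changed), with a median log2FC of -0.26. Psmc3ip, which only shares the name, is counted among the 47 and among the 36, and its groups did not overlap. The 3 that rose were Psmb9, Psme1 and Psme2, where 19% of all genes were higher. The groups did not overlap for 34 members in the lower direction and 3 in the higher, against 26.8% of all genes in either direction and 13.1% in the higher. In bulk RNA, fewer cells of a kind and less RNA per cell cannot be told apart.

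**Figure D1:**
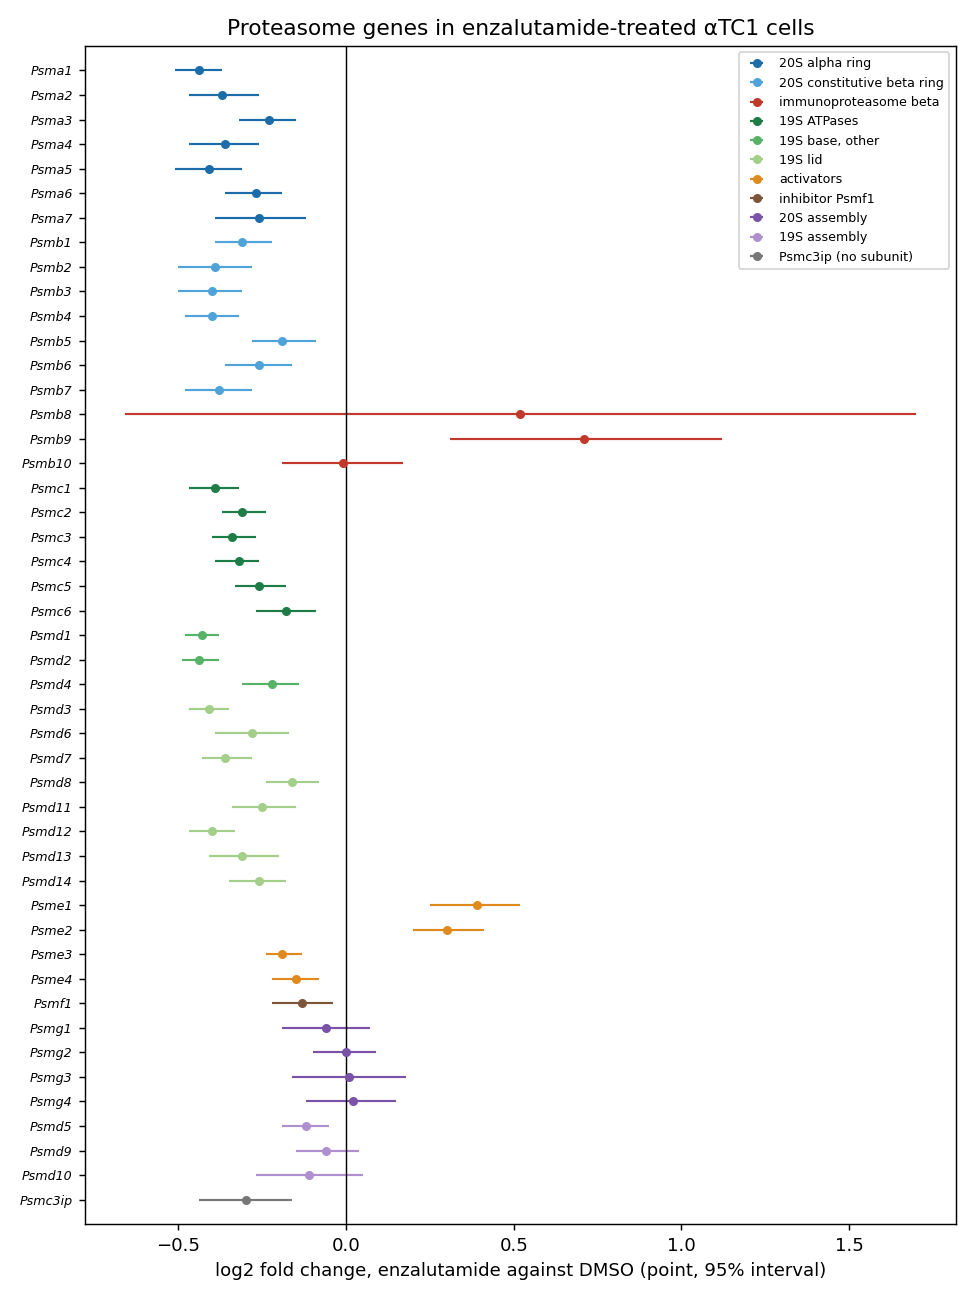
Log2 fold change of the 47 tested genes of the naming rule, Psmc3ip among them (enzalutamide against DMSO, 5 libraries each). Points mark the estimate of edgeR's quasi-likelihood test and bars its 95% interval, coloured by part of the complex. The 31 tested 20S and 19S subunits of the naming rule lie left of 0. The core assembly genes lie around 0, and Psmb9, Psme1 and Psme2 lie right of 0.

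The α ring forms the outer rings of the core and gates the entry of substrates. Its 7 tested genes, Psma1 to Psma7, all fell, with changes from -26.4% to -14.8%. Psma1 (ENSMUSG00000030751; chromosome 7, 114264606 to 114276118 on GRCm38/mm10) was at 244, 230.4, 248, 245 and 234 CPM with DMSO and at 169, 184, 183, 183 and 165 CPM with enzalutamide. The lowest DMSO library lay well above the highest enzalutamide library, and the difference was the clearest of the ring (log2FC -0.44 with SE 0.0368, adjusted p = 6.4e-08). Psma5 was at 117, 97.3, 116, 109 and 106 CPM with DMSO and at 85.2, 84.9, 79.6, 85.3 and 74.1 CPM with enzalutamide, again without overlap between the groups (log2FC -0.41 with SE 0.0512, adjusted p = 6.15e-06). Psma4 fell from 76.8 ± 3.9 to 59.7 ± 4.76 CPM (log2FC -0.36 with SE 0.0525, adjusted p = 3.22e-05). Psma2, Psma3, Psma6 and Psma7 had log2FCs of -0.37, -0.23, -0.27 and -0.26, and in Psma2, Psma6 and Psma7 enzalutamide library 5 stood below the other 4. Psma7 had the widest spread of the ring in enzalutamide, with 169, 172, 166, 171 and 125 CPM, and its 5 values still lay below those of DMSO (209.6, 183, 198, 182 and 186 CPM). Psma2 shares 8943 bases with AW209491, a gene on the same strand, so the assignment of its reads is less certain. Psma8, the α subunit of spermatocytes, had 0 counts in every library.

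The constitutive β ring carries the proteolytic sites, and its 7 genes, Psmb1 to Psmb7, also all fell. The changes ran from -24.4% for Psmb3 and Psmb4 to -12.1% for Psmb5. Psmb4, a structural subunit (ENSMUSG00000005779; chromosome 3, 94884093 to 94886961), was at 258, 237, 269.9, 261 and 246 CPM with DMSO and at 188, 203, 196, 198 and 177 CPM with enzalutamide (log2FC -0.40 with SE 0.0413, adjusted p = 6.98e-07). Psmb3, also structural, was at 158, 155, 159, 156 and 155 CPM with DMSO and at 128, 126, 118, 119 and 101 CPM with enzalutamide. The DMSO libraries of Psmb3 lay within a few CPM of each other, and the groups were far apart (log2FC -0.40 with SE 0.0487, adjusted p = 4.49e-06). The other structural subunits Psmb1 and Psmb2 had log2FCs of -0.31 and -0.39.

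The 3 catalytic subunits fell by unequal amounts, Psmb7 most and Psmb5 least in the estimates, with 95% intervals that overlapped or touched. Psmb7, which carries the trypsin-like site (ENSMUSG00000026750; chromosome 2, 38588036 to 38644087), was at 152, 138, 162, 146 and 142 CPM with DMSO and at 109.5, 124, 115, 117 and 103 CPM with enzalutamide (log2FC -0.38 with SE 0.0503, adjusted p = 1.25e-05, interval -0.48 to -0.28). Psmb6, which carries the caspase-like site (ENSMUSG00000018286; chromosome 11, 70525367 to 70527858), was at 45.7, 50.5, 55.4, 52.7 and 50.1 CPM with DMSO and at 43.7, 44.7, 41.3, 41.8 and 41.2 CPM with enzalutamide (log2FC -0.26 with SE 0.0504, adjusted p = 0.000556, interval -0.36 to -0.16). The groups did not overlap for Psmb6, but the lowest DMSO and the highest enzalutamide library were about 1 CPM apart. Psmb5, which carries the chymotrypsin-like site that clinical proteasome inhibitors bind (ENSMUSG00000022193; chromosome 14, 54614119 to 54618022), was at 50.3, 49, 50.4, 46.2 and 50.1 CPM with DMSO and at 44.8, 46, 44.2, 41.9 and 39.4 CPM with enzalutamide. Its groups were nearly touching, and its fall was the smallest of the ring (log2FC -0.19 with SE 0.0478, adjusted p = 0.00506, interval -0.28 to -0.09). The difference between the catalytic subunits was not itself tested.

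**Figure D2:**
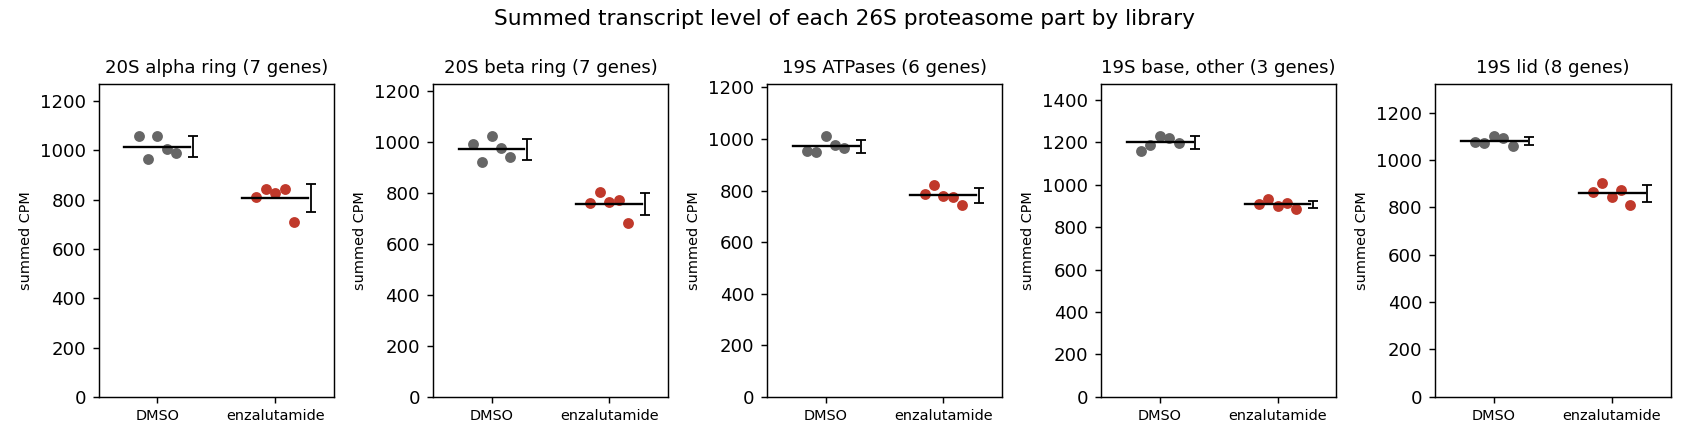
Summed CPM of the genes of the naming rule in each part of the 26S proteasome, in every library. A horizontal line marks the mean and a bar the SD (n = 5 per group), and each vertical axis starts at 0. In each part all 5 enzalutamide libraries lie below all 5 DMSO libraries, and enzalutamide library 5 is the lowest.

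Summed over genes, the α ring went from 1016 ± 41.2 to 806 ± 56.4 CPM and the constitutive β ring from 970 ± 41.1 to 756 ± 43.9 CPM (DMSO to enzalutamide, SD, n = 5 each), changes of -20.6% and -22.1%. The 17 genes of the 19S regulatory particle that match the naming rule went from 3252 ± 63.9 to 2549 ± 78.7 CPM, a change of -21.6%. These sums are descriptions without a test. Within the enzalutamide group library 5 had the lowest value for 25 of the 31 subunits and library 2 the highest for 20. Within DMSO, library 3 was the highest for 20. Without enzalutamide library 5 all 31 subunits still passed, and the median log2 fold change over the members was -0.23.

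The 6 ATPases of the regulatory particle, Psmc1 to Psmc6, form the ring that unfolds substrates and threads them into the core. All of them fell, with changes from -23.9% to -11.9%, and the groups overlapped in none of the 6. Psmc1 (ENSMUSG00000021178; chromosome 12, 100110154 to 100123405) was at 213, 201, 226, 213 and 212 CPM with DMSO and at 167, 171, 162, 158 and 152 CPM with enzalutamide (log2FC -0.39 with SE 0.0377, adjusted p = 3.12e-07). Psmc3 was at 182, 189, 197, 195 and 185 CPM with DMSO and at 150.4, 157, 150.0, 145 and 147 CPM with enzalutamide, and every enzalutamide library was lower than every DMSO library by more than the spread of either group (log2FC -0.34 with SE 0.0326, adjusted p = 3.58e-07). Psmc3 overlaps Slc39a13 on the opposite strand over 4579 bases, as Psmb7 does Nek6 over 6571 bases and Psmd13 does Sirt3 over 342 bases, and the counting strand is not given in the sources used here. Psmc4 fell from 159 ± 2.92 to 127 ± 5.03 CPM (log2FC -0.32 with SE 0.0329, adjusted p = 6.38e-07). The smallest change of the ring was that of Psmc6, from 77.6 ± 5.49 to 68.4 ± 2.9 CPM (log2FC -0.18 with SE 0.0472, adjusted p = 0.00529), with DMSO library 3 well above the other 4 of its group.

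Of the other base subunits, the naming rule covers Psmd1, Psmd2 and Psmd4. Psmd1 and Psmd2 are the large scaffold subunits that bind shuttle factors and deubiquitinases, and Psmd4 is a ubiquitin receptor. All 3 fell. Psmd2 (ENSMUSG00000006998; chromosome 16, 20651652 to 20663414), with the highest CPM of all members, was at 559.8, 582, 599.9, 596 and 568 CPM with DMSO and at 431, 437, 418, 439.8 and 422 CPM with enzalutamide (log2FC -0.44 with SE 0.0284, adjusted p = 2.87e-09). Psmd1 (ENSMUSG00000026229; chromosome 1, 86064387 to 86139151) was at 441, 444, 448, 454 and 461 CPM with DMSO and at 332, 339.6, 340.5, 330.5 and 329 CPM with enzalutamide (log2FC -0.43 with SE 0.0261, adjusted p = 1.21e-09). In each scaffold gene the gap between the groups exceeded the whole range within either of them. Psmd4 had a smaller change, from 169 ± 9.42 to 145 ± 7.7 CPM (log2FC -0.22 with SE 0.043, adjusted p = 0.000546).

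The 8 lid genes that match the naming rule all fell. Psmd3, a structural lid subunit (ENSMUSG00000017221; chromosome 11, 98682554 to 98695979), was at 342, 359, 343, 351 and 337 CPM with DMSO and at 267, 273, 251, 256 and 257 CPM with enzalutamide (log2FC -0.41 with SE 0.0309, adjusted p = 1.78e-08). Psmd12 was at 138, 129, 137, 128 and 132 CPM with DMSO and at 100.4, 102, 100.0, 106 and 94.5 CPM with enzalutamide (log2FC -0.40 with SE 0.0369, adjusted p = 1.99e-07). Neither gene had overlapping groups. Psmd7, which pairs with the deubiquitinase subunit, fell from 153 ± 5.15 to 119 ± 6.23 CPM (log2FC -0.36 with SE 0.0385, adjusted p = 1.3e-06). Psmd14, the deubiquitinase that removes ubiquitin chains as substrates enter, had a log2FC of -0.26 (interval -0.35 to -0.18). Psmd11, a subunit linked to high proteasome activity in human embryonic stem cells, had -0.25. Psmd6, Psmd8 and Psmd13 had -0.28, -0.16 and -0.31. Psmd6 was the 1 gene of the 31 whose groups overlapped, with a lowest DMSO value of 55 CPM and a highest enzalutamide value of 55.2 CPM.

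Of the 3 inducible subunits of the immunoproteasome that could be tested, 1 rose, 0 fell and 2 did not pass, where 19% of all genes tested rose and 37.8% changed in either direction. With 3 genes this count does not set them apart from genes in general. Psmb9, the counterpart of Psmb6 (ENSMUSG00000096727; chromosome 17, 34181987 to 34187764), was at 1.22, 0.981, 0.773, 1.17 and 1.18 CPM with DMSO and at 1.75, 1.82, 1.8, 1.98 and 1.38 CPM with enzalutamide. All enzalutamide libraries were above all DMSO libraries, and Psmb9 rose by 63.9% (log2FC 0.71 with SE 0.206, adjusted p = 0.0108, interval 0.31 to 1.12). These levels came from 78, 64, 52, 79 and 78 counts in DMSO and 106, 122, 123, 132 and 90 counts in enzalutamide. Among 5 leukocyte markers Ptprc and Cd3e were at 0 and Cd68 and Itgam were detected, and the summed level of the 5 was between 0.744 and 2.16 CPM with DMSO and between 1.21 and 2.03 CPM with enzalutamide. Psmb9 overlaps Tap1, on the opposite strand, by 212 bases. Tap1 itself rose from 4.14 ± 0.446 to 5.53 ± 0.409 CPM, and the part of its reads in the Psmb9 counts was not tested. Psmb10, the counterpart of Psmb7, was at 12.8, 14, 18.6, 17.1 and 15.3 CPM with DMSO and at 16.1, 17.1, 15.1, 15.4 and 13.5 CPM with enzalutamide. Its groups overlapped fully, and no difference was detectable (log2FC -0.01, interval -0.19 to 0.17, adjusted p = 0.943). Psmb8, the counterpart of Psmb5, had between 4 and 21 counts per DMSO library and between 4 and 43 per enzalutamide library. At this depth its change could not be resolved (log2FC 0.52, interval -0.66 to 1.70, adjusted p = 0.546), and without enzalutamide library 1 the estimate was -0.06. Psmb11, the β subunit of the thymus, had 0 counts in every library.

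**Figure D3:**
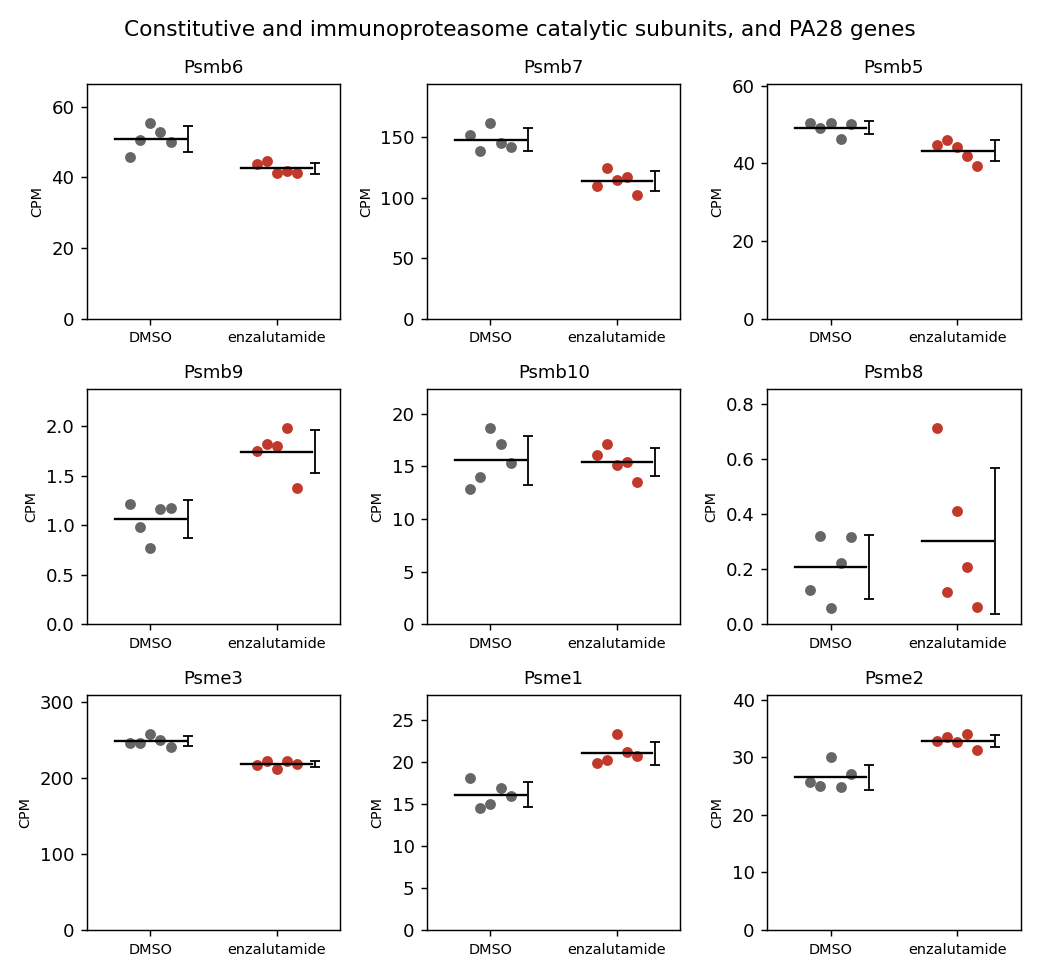
CPM in every library for the constitutive catalytic subunit genes (top), their immunoproteasome counterparts in the same order (middle) and the PA28 activator genes (bottom), with a line for the mean and a bar for the SD (n = 5 per group); each vertical axis starts at 0 and has its own scale. Psmb9, Psme1 and Psme2 are higher in enzalutamide, and the top row and Psme3 are lower.

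Levels of different genes were compared per length, as CPM per kilobase of the principal annotated transcript. On this scale the immunoproteasome genes were far below the subunits they replace. Psmb9 was at 1.25 ± 0.284% of Psmb6 in DMSO and 2.43 ± 0.3% in enzalutamide (SD, n = 5 each). Psmb10 was at 9.31 ± 1.18% of Psmb7 and then 12 ± 0.604%. Psmb8 was at 0.236 ± 0.131% of Psmb5 and then 0.379 ± 0.323%. In either group the constitutive transcript was the main one of each pair. These ratios were not tested. Of the 3 inducible genes Psmb10 had the highest level per length, 11.9 CPM per kilobase in DMSO.

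The activators that bind the core in place of the regulatory particle split by type. Psme1 and Psme2, which encode the cytosolic PA28αβ activator, rose, and Psme3 and Psme4, which encode the nuclear activators PA28γ and PA200, fell, where 19% of all genes tested were higher and 18.8% lower. Psme1 (ENSMUSG00000022216; chromosome 14, 55578123 to 55581529) was at 18.1, 14.5, 15, 16.9 and 15.9 CPM with DMSO and at 19.8, 20.2, 23.3, 21.1 and 20.7 CPM with enzalutamide (log2FC 0.39 with SE 0.0684, adjusted p = 0.000224). Psme2 (ENSMUSG00000079197; chromosome 14, 55587441 to 55591113) was at 25.7, 25, 30.1, 24.9 and 27.2 CPM with DMSO and at 32.8, 33.5, 32.6, 34.1 and 31.3 CPM with enzalutamide (log2FC 0.30 with SE 0.0555, adjusted p = 0.000304). In either gene the lowest enzalutamide library was above the highest DMSO library. The genes lie 5912 bases apart on chromosome 14. Psme3 (ENSMUSG00000078652; chromosome 11, 101316213 to 101323537) was at 246, 246, 258, 250.5 and 241 CPM with DMSO and at 217, 222, 212, 222 and 218 CPM with enzalutamide (log2FC -0.19 with SE 0.0286, adjusted p = 5.93e-05). Psme4 fell from 197 ± 6.59 to 178 ± 7.6 CPM (log2FC -0.15 with SE 0.0351, adjusted p = 0.00289). Per length, Psme1 went from 15.5 ± 1.52% to 23.1 ± 1.83% of Psme3, and Psme2 from 29.7 ± 2.04% to 41.7 ± 1.09%. Psme2b, an intronless copy of Psme2, had at most 15 counts in a library and was not tested. Reads of such near-identical copies may be split between the genes.

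Psmf1 encodes PI31, which inhibits the core in vitro. It was at 46.6, 46, 47.7, 47.6 and 43.7 CPM with DMSO and at 46.7, 40.9, 41, 42.6 and 40.5 CPM with enzalutamide, and the groups overlapped through enzalutamide library 1. Its small fall passed narrowly (log2FC -0.13 with SE 0.0474, adjusted p = 0.0369). It did not pass with total-count scaling (adjusted p = 0.128), without a filter on low counts (0.0533), or without any 1 of DMSO libraries 1 to 4 and enzalutamide libraries 2 to 5 (0.0572 to 0.0856).

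Of 7 tested genes for dedicated assembly factors 1 fell, 0 rose and 6 did not pass. The share that fell, 14.3%, was near the 18.8% of all genes tested. Psmg1 to Psmg4 encode the chaperones PAC1 to PAC4, which build the α ring, and Psmd5, Psmd9 and Psmd10 encode chaperones of the regulatory particle base. Psmg1 was at 32.1 ± 1.91 CPM with DMSO and 30.9 ± 3.18 CPM with enzalutamide, Psmg2 at 41.2 ± 1.55 CPM with DMSO and 41.1 ± 2.31 CPM with enzalutamide. Psmg3 was at 19.5 ± 2.33 CPM with DMSO and 19.6 ± 2.06 CPM with enzalutamide and Psmg4 at 17.6 ± 0.662 CPM with DMSO and 17.8 ± 1.88 CPM with enzalutamide. The groups overlapped in all 4 genes. The intervals of their log2 fold changes were -0.19 to 0.07 for Psmg1, -0.10 to 0.09 for Psmg2, -0.16 to 0.18 for Psmg3 and -0.12 to 0.15 for Psmg4, all of them above the median of -0.32 of the subunits. Psmd5 was at 111, 105, 108, 103 and 103 CPM with DMSO and at 101, 96.2, 101, 94.5 and 93.6 CPM with enzalutamide. It fell slightly, without overlap between the groups (log2FC -0.12 with SE 0.0358, adjusted p = 0.0113), and did not pass with total-count scaling (adjusted p = 0.065). Psmd9 and Psmd10 had intervals of -0.15 to 0.04 and -0.27 to 0.05 and did not pass (adjusted p = 0.411 and 0.341). Psmc3ip, which only shares the name, fell from 28.8 ± 3.29 to 23.3 ± 1.17 CPM (log2FC -0.30 with SE 0.0702, adjusted p = 0.00245). It overlaps Mlx on the opposite strand over 385 bases.

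The core chaperone POMP, whose gene Pomp does not match the naming rule, fell as well. Pomp (ENSMUSG00000029649; chromosome 5, 147860461 to 147876456), which guides the β subunits onto the α ring and is degraded by the finished core, was at 106, 101, 115, 111 and 101 CPM with DMSO and at 80.5, 78.7, 74.4, 82.9 and 67.6 CPM with enzalutamide. The groups lay far apart, and Pomp changed by -28.1% (log2FC -0.48 with SE 0.0525, adjusted p = 1.61e-06), as an estimate a larger fall than that of any member.

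Per length, the constitutive core genes ranged in DMSO from 41.1 CPM per kilobase for Psma2 to 215 for Psmb4, although the assembled core holds these subunits in equal number. The 19S genes ranged from 23.4 for Psmd11 to 196 for Psmd2. The assembly factors ranged from 8.15 for Psmd10 to 38.9 for Psmg2, so that each of them was below the median of the core genes, 109 CPM per kilobase. These levels depend on which transcript is taken as the principal one, since long annotated 3′ ends lower the value.

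**Figure D4:**
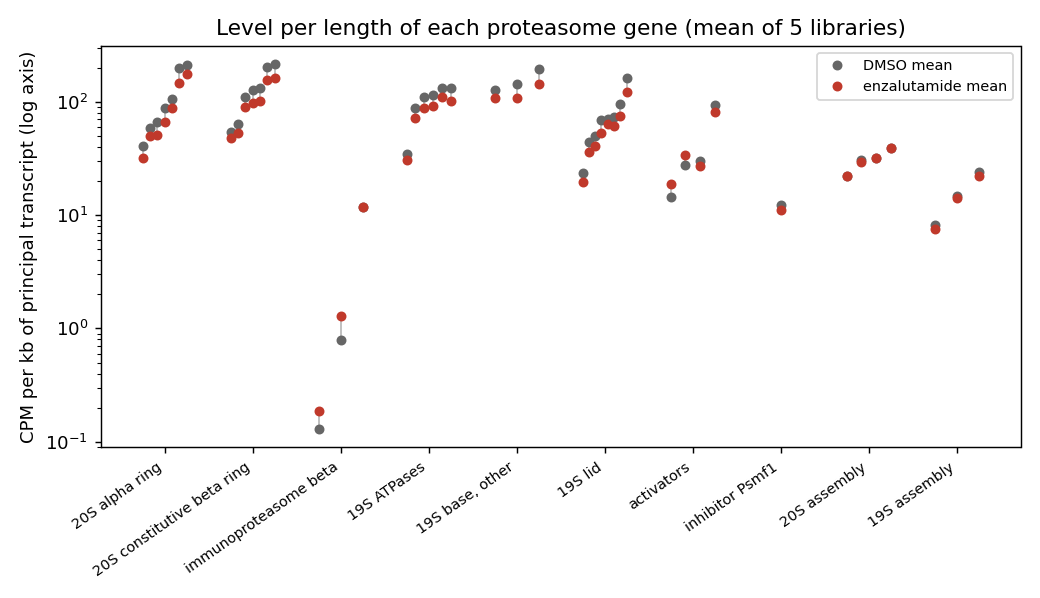
Mean CPM per kilobase of principal transcript (log axis) of each tested gene except Psmc3ip, in DMSO and enzalutamide, n = 5 libraries each. Genes are grouped by part of the complex, with the means of a gene joined by a line. Most constitutive subunits of the core and regulatory particle lie above the other genes, and Psmb8 and Psmb9 lie lowest. The enzalutamide points of these constitutive subunits lie below their DMSO points.

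A list of 29 genes that work with the proteasome outside the naming rule had 15 lower and 1 higher. These were 51.7% and 3.45% of the list, against 18.8% and 19% of all genes tested, and its median log2FC was -0.12. The list was chosen with earlier results of these data known, so its shares are a description only. Of 9 genes for proteins bound to the proteasome or its assembly 7 fell. They included the 19S subunit genes Adrm1, a ubiquitin receptor of the base (log2FC -0.28 with SE 0.0434, adjusted p = 7.76e-05), and Shfm1, of the lid (log2FC -0.16 with SE 0.0539, adjusted p = 0.0232). The deubiquitinases Uchl5 (-0.30) and Usp14 (-0.26) were also among them. Of 11 genes for factors that extract and deliver substrates 5 fell, 0 rose and 6 did not pass. Vcp, the segregase that pulls ubiquitin-tagged proteins from membranes and complexes (ENSMUSG00000028452; chromosome 4, 42979963 to 43000507), was at 769, 781, 797, 808 and 775 CPM with DMSO and at 564, 583, 552, 578 and 550.1 CPM with enzalutamide (log2FC -0.47 with SE 0.0268, adjusted p = 4.46e-10). Its cofactor genes Ufd1l and Nploc4 fell with log2FCs of -0.28 and -0.17. The shuttle factor gene Rad23b fell from 493 ± 8.87 to 422 ± 5.32 CPM (log2FC -0.23 with SE 0.0253, adjusted p = 1.99e-06). Of 6 ubiquitin and E1 genes 3 fell, among them Uba1, the main ubiquitin-activating enzyme (log2FC -0.24).

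The 1 gene of this list that rose was Nfe2l1, the transcription factor known to induce proteasome genes when proteasome activity is low (ENSMUSG00000038615; chromosome 11, 96817414 to 96829968). It was at 211, 217, 221, 221 and 217 CPM with DMSO and at 316, 307, 300.1, 318 and 312 CPM with enzalutamide. Every enzalutamide library was far above every DMSO library, and Nfe2l1 rose by 43.1% (log2FC 0.52 with SE 0.0282, adjusted p = 3.05e-10). The transcript level does not give the active protein, which is made by deglycosylation and cleavage of a precursor. Ngly1 and Ddi2, whose products carry out these steps, did not pass, with intervals of -0.11 to 0.20 and -0.01 to 0.11. Nfe2l2, the related factor of the oxidative stress response, was at 49.8 ± 2.06 CPM with DMSO and 46.8 ± 1.12 CPM with enzalutamide and did not pass (adjusted p = 0.0892), although its groups did not overlap.

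**Figure D5:**
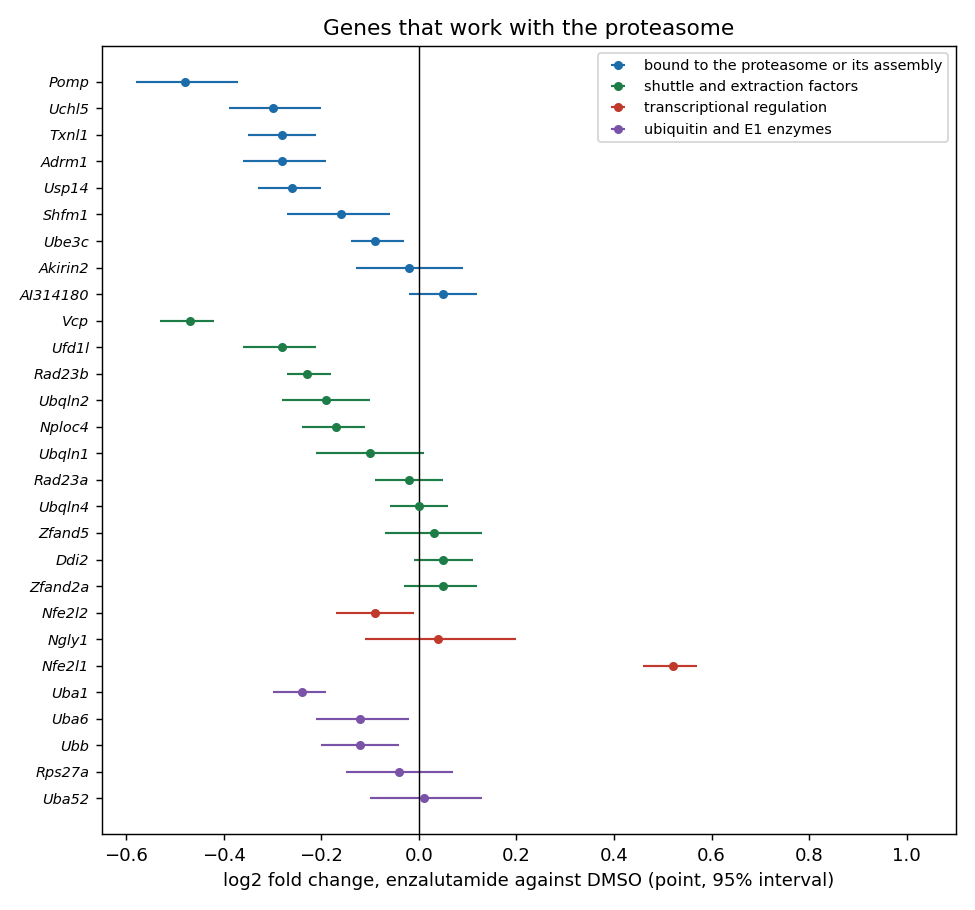
Log2 fold change (enzalutamide against DMSO, 5 libraries each) of 28 of the 29 genes that work with the proteasome, with points for the estimate and bars for the 95% interval of edgeR's quasi-likelihood test, coloured by role. Pomp and Vcp lie farthest to the left, and Nfe2l1 lies alone on the right at 0.52.

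Class I antigen presentation displays peptides made by the proteasome. Psmb9 and Psmb8 lie 9957 bases apart on chromosome 17, next to the peptide transporter genes. Of 7 tested genes of class I presentation and its interferon control 3 rose and 0 fell (42.9% higher, against 19% of all genes tested), a count too small to set the list apart. Tap1 and Tap2, the peptide transporter subunits, rose (log2FC 0.42 with SE 0.107, adjusted p = 0.00495 for Tap1; log2FC 0.78 with SE 0.109, adjusted p = 2.34e-05 for Tap2). Tapbp, which encodes tapasin, rose less (log2FC 0.21, adjusted p = 0.019, up to 0.0613 without DMSO library 1 or enzalutamide library 1 or with the replicate block after removal of GC and length trends). B2m, Irf1 and Irf9 did not pass, with intervals of 0.02 to 0.34, -0.15 to 0.22 and -0.17 to 0.26.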

How the data were processed

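Polyadenylated RNA of 10 libraries was analysed. HISAT2, StringTie, DESeq2 and the mm10 build are named, per the submitters' processing notes, with neither roles nor versions. The authors deposited whole-number counts for 33212 Ensembl genes, the basis of the main test. They also deposited a scaled signal for 20240 genes, which times DESeq2's size factor gave the count within 0.01 for all 20039 genes matched by a unique symbol, and which served 2 alternatives. The handling of strand and of reads with several matches is not given in the sources used here. Overlapping genes and genes with processed pseudogenes are therefore less certain. No columns were left unused.

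Counts were filtered with filterByExpr, scaled by TMM (trimmed mean of M values) and tested without covariates with edgeR 4.0.16 in R 4.3.3 (quasi-likelihood test). P-values were adjusted over 14156 genes (Benjamini-Hochberg, threshold 0.05). The biological coefficient of variation was 8.39%. SEs are the absolute log2 fold change over the square root of F, and 95% intervals apply a normal quantile without adjustment for the number of genes. ± is the SD over 5 libraries. Alternatives used DESeq2 1.42.0 and limma 3.58.1. The code was also run on simulated counts in which few genes were changed, unlike here, so that run does not bear on the calls. Libraries of a group differed by more than sampling noise, with a chi-square of 9.23 to 37.3 per degree of freedom. Positions, transcript lengths and overlaps came from GENCODE M21 on GRCm38, promoters from RefSeq.

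The members, lists and motifs were chosen with earlier results of these data known. Named members were the catalytic subunits, their inducible counterparts, Psme1, Psme2, Pomp, Nfe2l1, the 3 with the lowest adjusted p per class, and 4 partners by the same measure. Other genes, such as Psmf1, Adrm1 and Tap1, were named after their values were seen. Values of some genes of the lists are not reported here.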

Additional observations from a re-analysis of the deposited data

Results flagged for a closer look

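Within a group, 4 values stood apart from the other 4 libraries by more than Dixon's 95% limit for 5 samples (gap over range above 0.71), among 102 groups of values checked, where chance gives about 1 in 20. Enzalutamide library 5 was the low one in 3 of them. It had 79.2 CPM for Psma2 (next lowest 93.3), 80.2 CPM for Psma6 (next lowest 93.4) and 124.8 CPM for Psma7 (next lowest 165.6). These are α ring genes, and without this library each of them still passed. DMSO library 3 was the high one for Psmc6, an ATPase gene, with 87.1 CPM (next highest 76.7), and without it Psmc6 still passed.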

How the results depend on the processing

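Across 21 alternative settings the counts of 14 lower core genes and 17 lower regulatory particle genes did not change, 0 of either were higher, and 3 members were higher in each. Lower members numbered 34 to 36 and lower partner genes 12 to 16. Of the 39 members called, 37 kept the call in all of these settings, and the exceptions were Psmf1 and Psmd5. The median log2 fold change over the members was between -0.28 and -0.22. None of the 8 members that did not pass did so in any setting (lowest adjusted p = 0.164). Estimates near 0 changed sign. Psmb10 had 0.02 with total-count scaling, 0.01 with the replicate block after removal of GC and length trends, and -0.08 to 0.06 when 1 library was left out. Psmg2 had 0.03 with total-count scaling, 0.06 after removal of these trends, 0.05 with the block added to that, and -0.03 to 0.03 when 1 library was left out. With 1 library left out, Psmg3 had -0.06 to 0.06, Psmg4 -0.02 to 0.08 and Psmb8 -0.06 to 0.78. With 1 library left out, all genes called higher numbered 2446 to 2669 and lower 2433 to 2685. Same-numbered libraries of the groups did not deviate together (correlations of -0.088 to 0.146), so the numbers were not taken as pairs, and the replicate block gave 36 lower and 3 higher members and 2659 higher and 2637 lower genes in all. Psmb8 and Psmb9 rest on few counts, which limits their precision.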
